A study of Mus musculus with 6 samples.

Results

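Tuft cells are rare chemosensory cells of the gut epithelium, and the 31 genes described here are those by which such cells are usually recognised or which carry out their work. They were taken by symbol from a table of 46078 genes, and all 31 were present. The libraries hold poly(A) RNA of EpCam-positive, CD45-negative cells sorted from the proximal small intestine of untreated mice of the C57BL/6JRj strain. There were 3 libraries from young mice (2 to 3 months old) and 3 from aged mice (20 to 22 months old), and no genetic alteration was named for either group. The comparison asks whether the level of these genes differed between the epithelium of aged and of young mice. These are bulk libraries, so fewer tuft cells and less RNA per tuft cell cannot be told apart. CD45 is carried by a subset of tuft cells as well as by leukocytes, so the gate itself limits which tuft cells were sampled.

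A tuft cell reads the gut lumen with parts shared with taste cells. Receptors for succinate and tastants act through G proteins and a phospholipase to release calcium, which opens the cation channel TRPM5. The cell then gives out interleukin 25, cysteinyl leukotrienes, prostaglandin D2 and acetylcholine, and the first of these starts the type 2 immune response to worms and protists. The POU-domain factor POU2F3 is needed for the cells to form.

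Total counts per library ran from 41479573 to 58989166, and mitochondrial transcripts took 1.48 to 3.69% of them. For a gene without counts the upper limit is 3 counts, or 0.0507 to 0.072 CPM (library-scaled counts, with TMM factors). Such limits cover counting error only. Epcam, which encodes the sorted surface protein, lay between 1630 and 1670 CPM in the young mice and between 1500 and 1520 CPM in the aged mice, without overlap (log2 fold change -0.13, edgeR adjusted p = 0.654). Ptprc, which encodes CD45, lay between 0.168 and 0.287 CPM. Across all genes, 14923 passed the filter on low counts, of which 1.41% were called at an adjusted p below 0.05 (edgeR quasi-likelihood test, Benjamini-Hochberg), 0.623% as higher and 0.784% as lower in aged libraries.

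The label was checked against 18 defining tuft cell markers. Of these, 14 passed the filter on low counts, among them Dclk1, Trpm5, Pou2f3, Avil, Sh2d6 and Lrmp. The other 4 were Il25, Gnat3, Chat and Sucnr1, which held between 3 and 21 counts over the 6 libraries together. Their summed level was 83.0, 85.1 and 89.2 CPM in the young libraries and 90.9, 76.1 and 60.8 CPM in the aged ones. The highest and the lowest of the 6 sums both came from aged mice, so the groups overlapped.

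Per length of gene, the 31 members spanned levels from near 0 to 519 RPKM in young libraries (CPM per kilobase of exon). Krt18 (519 ± 60.7 RPKM in young libraries, SD, n = 3) and Cd24a (101 ± 12.9) stood far above the rest. These genes are broadly expressed in the epithelium, and together they held 82.4 to 85.3% of the summed CPM of the 31 members. Below them lay Plcg2 (10.7 ± 1.32), Ptpn6 (9.55 ± 0.607), Sh2d6 (5.89 ± 0.868) and Avil (4.61 ± 0.456), followed by Ltc4s (3.75 ± 0.281), Trpm5 (2.84 ± 0.299) and Lrmp (2.65 ± 0.560). In this order the SD ranges overlapped between Plcg2 and Ptpn6, between Sh2d6 and Avil, and between Trpm5 and Lrmp. Gnb3, at 0.00214 ± 0.00371 RPKM, was the lowest of the members that had any count in young libraries.

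**Figure D1:**
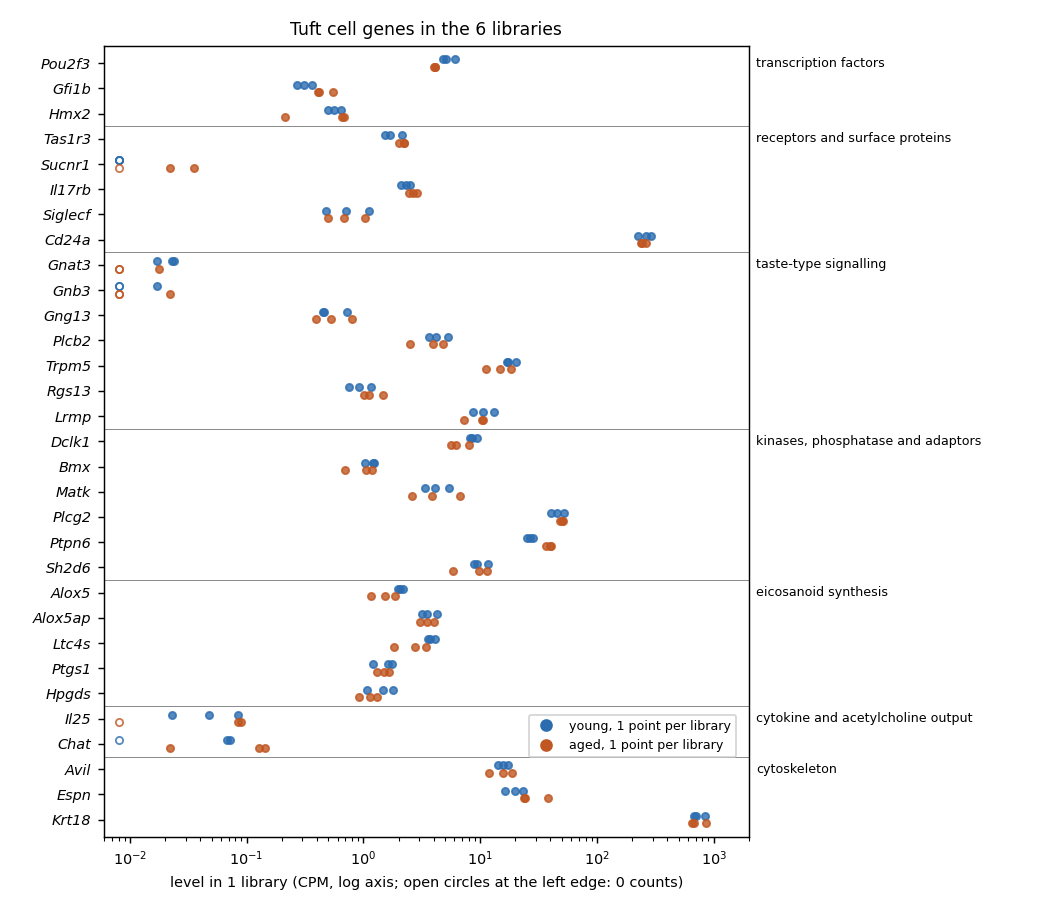
Level of each of the 31 tuft cell genes (rows, grouped by role) in each library, in CPM on a log axis. Blue points are the 3 young and orange points the 3 aged libraries, and open circles at the left edge are libraries with 0 counts. Ptpn6 is the member whose 3 aged points, from 36.6 to 40.3 CPM, lie above all young points and pass the test. Gnat3, Gnb3, Sucnr1, Il25 and Chat lie below 0.15 CPM.

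Of the 26 members that passed the filter, 1 rose in aged libraries and 0 fell. This is 3.85% of the members against 1.41% of all genes. The one that rose was Ptpn6, which encodes the tyrosine phosphatase SHP-1, a brake on kinase signalling in blood cells and epithelium. DESeq2 and limma-voom also called 1 member higher and 0 lower, against 3.23 and 1.2% of all genes. So did edgeR with RLE factors, without robust estimation, without a filter and with a filter of 1 CPM, against 1.37, 1.42, 1.65 and 1.1% of all genes. Without young replicate 2 or aged replicate 3, 1 member was called, against 1.42 and 1.78% of all genes. Without young replicate 1, young replicate 3, aged replicate 1 or aged replicate 2 it was 0, against 0.716, 0.732, 0.444 and 0.474%. At an unadjusted p below 0.05, 2 members were higher (Ptpn6 and Espn) and 2 lower (Pou2f3 and Dclk1), where 3.9 and 5.33% of all genes were. The median log2 fold change (aged minus young) of the 26 was -0.06, and that of all genes tested was 0.01. The quartiles of the members were -0.24 and 0.11, and those of all genes -0.11 and 0.10. Of the 26 members 17 (65.4%) lay below 0, where 48.2% of all genes did. Shares for markers of other epithelial cells are given further below, with the defining markers. The median moved with single libraries. It was -0.25 without aged replicate 1, with 19 members below 0, and 0.07 without aged replicate 3, with 11 below 0.

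The 3 aged and 3 young libraries did not overlap in 7 members (26.9%), where they did not overlap in 13.8% of all genes. Aged libraries were above young ones in 3 members (Ptpn6, Espn and Gfi1b), where 6.3% of all genes were, and below them in 4 (Pou2f3, Dclk1, Alox5 and Ltc4s), where 7.49% were. In 23 of the 26 members the 95% interval of the log2 fold change lay within a 2-fold change in either direction. The 3 whose interval reached further were Gfi1b, Hmx2 and Ltc4s.

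**Figure D2:**
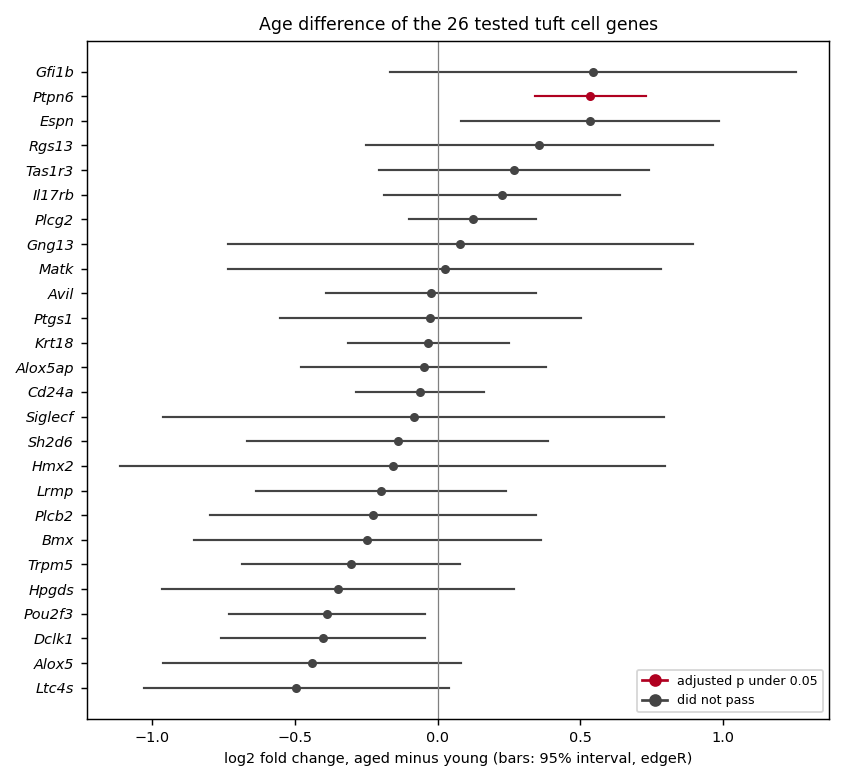
Log2 fold change, aged minus young, of the 26 tested tuft cell genes, with 95% intervals from edgeR. Ptpn6, in red at 0.54, is the gene that passed the adjusted threshold. The estimates of the 26 genes run from -0.50 for Ltc4s to 0.54 for Gfi1b.

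Promoter sequences are shown for 3 members. Ptpn6 is the member called, and Hpgds and Sucnr1 are the members that hold the octamer ATGCAAAT, the DNA word that POU factors of the POU2F3 type bind. The windows run from 250 bases before to 50 bases after the start site in RefSeq (GRCm38.p6). They are written 5′ to 3′ on the strand of the gene, with any octamer in capitals. They lie at chr6:124738660-124738959 (Ptpn6, minus strand), chr6:65144681-65144980 (Hpgds, minus strand) and chr3:60081619-60081918 (Sucnr1, plus strand).
Ptpn6: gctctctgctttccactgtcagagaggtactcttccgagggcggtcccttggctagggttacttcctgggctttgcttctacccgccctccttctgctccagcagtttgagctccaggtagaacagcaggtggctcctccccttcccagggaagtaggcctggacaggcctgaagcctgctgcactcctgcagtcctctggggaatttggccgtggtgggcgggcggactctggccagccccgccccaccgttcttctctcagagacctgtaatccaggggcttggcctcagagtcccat
Hpgds: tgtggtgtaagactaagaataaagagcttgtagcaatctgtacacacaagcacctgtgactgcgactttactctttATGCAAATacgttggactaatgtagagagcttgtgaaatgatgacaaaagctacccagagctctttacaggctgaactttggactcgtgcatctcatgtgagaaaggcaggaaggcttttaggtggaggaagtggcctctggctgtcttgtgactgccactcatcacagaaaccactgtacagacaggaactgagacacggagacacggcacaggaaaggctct
Sucnr1: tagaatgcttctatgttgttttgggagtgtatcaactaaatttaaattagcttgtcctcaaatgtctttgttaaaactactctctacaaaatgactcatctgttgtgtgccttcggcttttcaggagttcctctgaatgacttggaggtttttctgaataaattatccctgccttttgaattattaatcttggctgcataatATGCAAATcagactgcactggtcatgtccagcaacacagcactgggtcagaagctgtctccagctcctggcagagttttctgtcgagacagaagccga
The octamer, searched on both strands, began 174 bases before the RefSeq start site in Hpgds and 48 bases before it in Sucnr1. In Hpgds that position lies just inside the GENCODE gene, which starts further upstream. The octamer was found in 2 of the 31 windows that 25 members have in that table (6.45%) and in 1.74% of all 32851 windows. Hpgds held between 42 and 75 counts in each library, and Sucnr1 held 3 counts over all 6. A match of these letters describes the sequence and does not show a bound site.

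Among the transcription factors, 0 of 3 members passed the test. Pou2f3, on chromosome 9 (43123939 to 43210369, GRCm38), measured 5.09, 4.82 and 6.05 CPM in the young mice and 4.08, 4.01 and 4.10 CPM in the aged mice. All aged libraries lay below all young ones and close to one another. The log2 fold change was -0.39 ± 0.15 (SE) with an edgeR adjusted p of 0.429. It stayed between -0.46 and -0.29 over the alternatives. Gfi1b, a zinc finger repressor that marks tuft cells in the gut, went the other way, from a mean of 0.315 ± 0.0468 CPM in the young mice to 0.458 ± 0.0785 CPM in the aged mice (SD over 3 libraries). That difference rested on 45 and 68 counts in all, and its edgeR adjusted p was 0.713. Hmx2, a homeobox gene, held between 12 and 33 counts per library, and the library with 12 was aged replicate 3.

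Of the 5 receptor and surface protein genes, 4 were tested and 0 passed. Tas1r3, the shared subunit of the sweet and umami taste receptors, measured 1.71, 1.52 and 2.16 CPM in the young mice and 2.22, 2.21 and 2.03 CPM in the aged mice. Il17rb, which encodes the receptor subunit for interleukin 25, measured 2.30, 2.08 and 2.5 CPM in the young mice and 2.89, 2.46 and 2.67 CPM in the aged mice. Both genes had a higher mean in aged libraries, the groups overlapped in each, and the log2 fold changes of 0.27 ± 0.21 and 0.23 ± 0.18 did not pass. Cd24a, a surface glycoprotein also abundant on crypt cells, measured 262, 225 and 292 CPM in the young mice and 238, 243 and 265 CPM in the aged mice. All aged libraries lay within the young range. Its interval, -0.29 to 0.16 on the log2 scale, was among the narrowest. Siglecf, a sialic acid receptor best known from eosinophils, held 20 to 66 counts per library and was highest in young replicate 2 (1.12 CPM) and aged replicate 1 (1.03 CPM). Of 7 eosinophil markers 6 had 0 counts in all libraries, and their summed level was at most 0.0338 CPM. Sucnr1, the succinate receptor, had 0 counts in every young library and in aged replicate 1, and 1 and 2 counts in the other aged ones.

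The taste-type signalling genes were unevenly present. Trpm5 was clearly detected, at 17.0, 20.4 and 17.2 CPM in young and 18.2, 14.8 and 11.2 CPM in aged libraries. Aged replicate 1 lay within the young range and the other aged libraries below it, and the log2 fold change of -0.30 ± 0.17 did not pass (edgeR adjusted p = 0.690). Plcb2, the phospholipase upstream of the channel, measured 4.18, 5.31 and 3.62 CPM in the young mice and 3.97, 4.80 and 2.51 CPM in the aged mice. Trpm5 and Plcb2 were both highest in young replicate 2 and lowest in aged replicate 3. Lrmp, an endoplasmic reticulum membrane protein linked to calcium release in taste cells, was also lowest in aged replicate 3, with 10.6, 8.60 and 13.1 CPM in the young mice and 10.3, 10.6 and 7.27 CPM in the aged mice. Rgs13, which shortens G protein signals, did not follow them. It measured 0.750, 0.913 and 1.15 CPM in the young mice and 1.12, 1.01 and 1.46 CPM in the aged mice, and its highest value was in aged replicate 3.

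The 3 subunits of the gustatory G protein differed in level. Gng13, the gamma subunit, held 20 to 38 counts per library (0.392 to 0.802 CPM). Gnat3, the alpha subunit gustducin, held 4 counts over the 6 libraries, and Gnb3, the beta subunit, held 2. The exons of Gng13 overlap those of Chtf18 on the opposite strand over 51.6% of their length. Chtf18 averaged 49.6 CPM in the young mice and 55.5 CPM in the aged mice. Whether the counting used the strand is not stated in the sources used here, which makes the counts of Gng13 uncertain. Smaller shares of exon length overlap more abundant opposite-strand genes in Avil (4.86%, Tsfm), Il17rb (3.8%, Actr8), Trpm5 (3.44%, Tssc4) and Tas1r3 (1.02%, Dvl1). These partners averaged 68.9, 35.4, 46 and 153 CPM in the young mice, so the same uncertainty holds for those members. Trpm5, with 631 to 1207 counts per library, was thus measured in the same libraries where Gnat3 had at most 1 count.

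Among the kinases, phosphatases and adaptors, 1 of 6 members rose and 0 fell, where 0.623 and 0.784% of all genes did. Ptpn6, on chromosome 6 (124720707 to 124738714, GRCm38), measured 25.1, 28.5 and 26.8 CPM in the young mice and 39.5, 36.6 and 40.3 CPM in the aged mice. The lowest aged library lay above the highest young one. The log2 fold change was 0.54 ± 0.09 (SE), or 1.45-fold, with a 95% interval from 0.34 to 0.73 and an edgeR adjusted p of 0.0183. The direction held in every alternative, between 0.49 and 0.575 on the log2 scale. Leaving out 1 library ended the call in 4 cases, namely young replicate 1 (edgeR adjusted p = 0.107), young replicate 3 (0.0686), aged replicate 1 (0.0982) and aged replicate 2 (0.0598). The range of the adjusted p over all alternatives was 1.68e-05 to 0.107.

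Ptpn6 is also expressed by leukocytes, whose markers were measured beside it. The 16 markers of macrophages, dendritic cells and neutrophils summed to 25.1 to 33.4 CPM in young and 35.9 to 42.6 CPM in aged libraries, with 3 at 0 in all libraries. Of these, Itgam rose from 12.6 ± 0.68 to 21.6 ± 1.18 CPM (edgeR adjusted p = 0.00726), which is most of the difference in the sum. The other 4 tested genes did not pass, and Lyz2 averaged 2.99 CPM in the young mice and 2.06 CPM in the aged mice. The macrophage receptors Csf1r and Adgre1 were too low to test, at or below 0.0456 CPM on average in either group. The 14 T lymphocyte and innate lymphoid markers summed to 3.53 to 4.09 and 4.80 to 7.05 CPM, with 1 at 0, and Itgae rose from 1.16 ± 0.214 to 3.40 ± 0.581 CPM (edgeR adjusted p = 0.0129). For Itgae, omitting either young replicate 3 or aged replicate 1 ended the call. The other 3 tested genes of that list did not pass, with log2 fold changes of -0.29 for Trac, -0.23 for Lck and 0.52 for Cd8a. The 8 B and plasma cell markers summed to 2.52 to 2.86 and 2.87 to 3.97 CPM. Ptprc, the gated marker, was at most 0.287 CPM. The part of these markers in the difference of Ptpn6 was not tested.

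Dclk1, the kinase most used to stain tuft cells, lies on chromosome 3 (55242364 to 55539068, GRCm38). It measured 9.32, 8.26 and 8.49 CPM in the young mice and 7.98, 6.18 and 5.58 CPM in the aged mice. The groups did not overlap, but aged replicate 1 was close to the young libraries. The log2 fold change was -0.40 ± 0.16 (SE) and did not pass (edgeR adjusted p = 0.432, range 0.254 to 0.942 over the alternatives). The 95% interval ran from -0.76 to -0.05.

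Sh2d6, an SH2-domain adaptor, measured 8.78, 11.6 and 9.48 CPM in the young mice and 11.6, 9.76 and 5.86 CPM in the aged mice. Matk, a kinase that restrains Src family kinases, measured 4.14, 5.39 and 3.38 CPM in the young mice and 6.74, 3.90 and 2.58 CPM in the aged mice. Bmx, a Tec family kinase, measured 1.23, 1.2 and 1.03 CPM in the young mice and 1.06, 1.18 and 0.695 CPM in the aged mice. In these 3 genes the groups overlapped, and aged replicate 3 was the lowest of the 6 libraries. Plcg2, a phospholipase of receptor signalling, was steadier, at 45.4, 40.5 and 51.9 CPM in young and 51.4, 47.9 and 50.7 CPM in aged libraries, with an interval from -0.10 to 0.34 on the log2 scale.

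All 5 members that make eicosanoids had log2 fold changes below 0, where 48.2% of all genes did. Their median was -0.35, against 0.01 for all genes tested. Among 12 tested eicosanoid genes outside the members 58.3% lay below 0. Of the 5 members 0 passed with edgeR, DESeq2 or limma-voom or at an unadjusted edgeR p below 0.05. The sign held in every alternative for Ltc4s, Alox5 and Hpgds. It turned for Alox5ap without young replicate 3 (0.08) or aged replicate 3 (0.05), and for Ptgs1 with limma-voom and in the fits that omit young replicate 1, aged replicate 2 or young replicate 3 (at most 0.08). Ltc4s, the leukotriene C4 synthase, measured 3.71, 3.58 and 4.13 CPM in the young mice and 2.79, 1.82 and 3.46 CPM in the aged mice. Alox5, the 5-lipoxygenase that starts leukotriene synthesis, measured 2.05, 2.16 and 1.97 CPM in the young mice and 1.88, 1.53 and 1.16 CPM in the aged mice. In both genes all aged libraries lay below all young ones. The log2 fold changes were -0.50 ± 0.24 for Ltc4s (edgeR adjusted p = 0.607) and -0.44 ± 0.23 for Alox5 (0.662). The lowest aged library was replicate 2 for Ltc4s and replicate 3 for Alox5. Exons of Ltc4s share 26.4% of their length with the antisense gene Gm26542, which averaged 2.43 CPM in the young mice and 2.31 CPM in the aged mice. This makes the counts uncertain.

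Alox5ap, the activating partner of the lipoxygenase, whose exons share 13.3% of their length with the antisense gene Gm19719, measured 3.52, 3.16 and 4.30 CPM in the young mice and 4.05, 3.51 and 3.05 CPM in the aged mice. Hpgds, the prostaglandin D synthase whose octamer is printed above, measured 1.48, 1.06 and 1.80 CPM in the young mice and 1.14, 0.921 and 1.32 CPM in the aged mice. Ptgs1, the constitutive cyclooxygenase, measured 1.61, 1.22 and 1.75 CPM in the young mice and 1.67, 1.32 and 1.5 CPM in the aged mice. The groups overlapped in each of these 3 genes. Mast cells also make these lipids. Of 12 mast cell and basophil markers 7 had 0 counts in all libraries, and the summed level of 31.2 to 49.1 CPM was mostly Kit (40 CPM on average in young libraries), which other epithelial cells also express.

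The 2 output genes other than lipid enzymes were too low to test. Il25 had 1, 5 and 2 counts in young and 4, 0 and 5 in aged libraries. Chat, the enzyme that makes acetylcholine, had 3, 0 and 3 counts in young and 6, 1 and 8 in aged libraries. Neither could be compared at this depth.

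Of the 3 cytoskeletal genes 0 passed. Espn encodes espin, a bundler of actin filaments in microvilli that is not restricted to tuft cells. It measured 23.3, 19.8 and 16.3 CPM in the young mice and 37.8, 23.9 and 24.3 CPM in the aged mice. The groups did not overlap, but the lowest aged library and the highest young one were close. The log2 fold change of 0.53 ± 0.20 did not pass (edgeR adjusted p = 0.391), and without aged replicate 1 it was 0.29. Avil, the villin family protein advillin, measured 15.6, 14.2 and 17.3 CPM in the young mice and 18.7, 15.7 and 11.9 CPM in the aged mice, and its log2 fold change was -0.02 ± 0.16. Krt18, a keratin of all simple epithelia, measured 707, 685 and 846 CPM in the young mice and 863, 678 and 647 CPM in the aged mice, so that the groups overlapped.

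The median biological coefficient of variation that edgeR gave was 0.181 for the members and 0.117 for all genes tested. Of the 26 members tested 13 were lowest in aged replicate 3, and none was lowest in aged replicate 1. The median member stood at 111% of its own mean in aged replicate 1, 96.6% in aged replicate 2 and 86.0% in aged replicate 3. In young replicates 1, 2 and 3 it stood at 97.1, 89.9 and 110% of its mean. Aged replicate 3 was among the deeper libraries (55670388 counts), and its mitochondrial share of 1.54% was near that of young replicate 3 (1.48%).

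The genes low in aged replicate 3 included Trpm5 at 68% of its mean, Plcb2 at 62%, Sh2d6 at 62%, Alox5 at 65%, Bmx at 65% and Matk at 59%. Other members were not low there. Rgs13 was at 137%, Ptpn6 at 123%, Il17rb at 108% and Ltc4s at 106% of their means. Young replicate 2 was likewise uneven, with Siglecf at 148%, Plcb2 at 131%, Trpm5 at 124% and Matk at 124%, but Gfi1b at 70% and Tas1r3 at 77%.

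**Figure D3:**
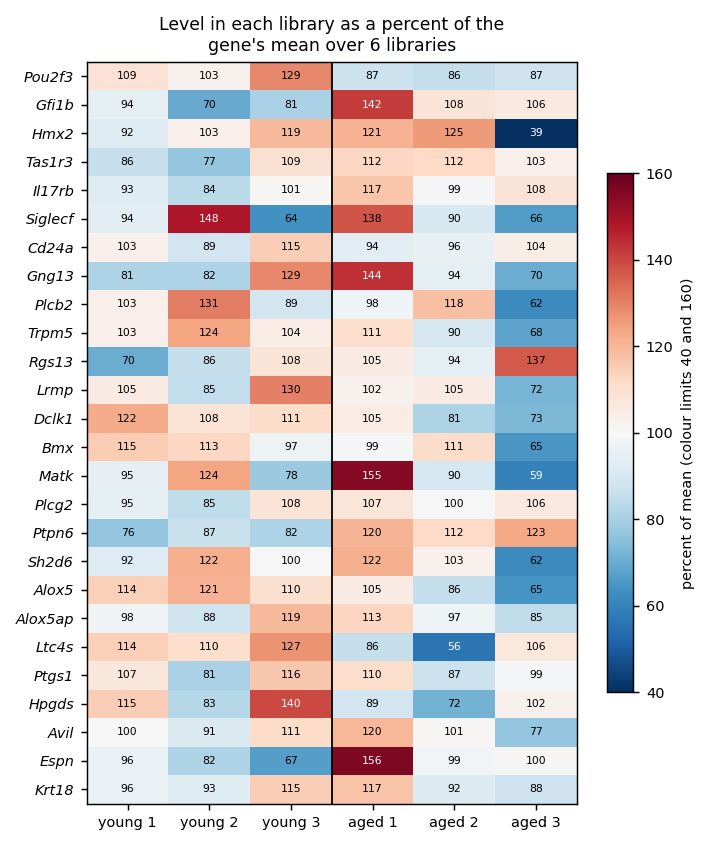
Level of each tested tuft cell gene (rows) in each library (columns) as a percent of its own mean over the 6 libraries, from blue (low) to red (high). Aged replicate 3 is the column with most low values, among them Trpm5 at 68% and Sh2d6 at 62%. Ptpn6 is above 110% in the 3 aged libraries and below 90% in the 3 young ones.

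Genes that act with the members were read from 6 further lists. Of 24 other genes of published tuft cell signatures all were tested, and 1 fell and 0 rose (4.17% called, against 1.41% of all genes). Nrep, which encodes a small neuronal regeneration protein, fell from 3.3, 3.60 and 5.01 CPM in young to 1.01, 0.592 and 1.14 CPM in aged libraries. The groups were well separated. The log2 fold change was -2.10 ± 0.28 (SE), or 0.233-fold, with an edgeR adjusted p of 0.00986 (range 5.01e-10 to 0.0607 over the alternatives). Without aged replicate 1 it no longer passed (edgeR adjusted p = 0.0607), at a log2 fold change of -2.18. DESeq2 called 2 genes of this list lower and limma-voom 1, against 3.23 and 1.2% of all genes in either direction. Nrep is also known from neurons and fibroblasts. The 11 neuron and glia markers summed to 16.7 to 18.0 CPM in young and 14.0 to 15.5 CPM in aged libraries, with 2 at 0 in all libraries. The 10 fibroblast and smooth muscle markers summed to 0.710 to 0.840 and 0.606 to 0.745 CPM, with 1 at 0. The part of these cells in the difference was not tested.

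The list as a whole had a median log2 fold change of -0.20, and 19 of 24 genes (79.2%) lay below 0, where 48.2% of all genes did. At an unadjusted edgeR p below 0.05, 1 of the 24 was higher and 6 were lower, where 3.9 and 5.33% of all genes were. Without single libraries the median lay between -0.29 and -0.15 and the number below 0 between 17 and 21. The groups did not overlap in 7 of the 24 genes (29.2%, against 13.8% of all genes). Besides Nrep, 5 of these were lower in aged libraries, named here after their values were seen. They were Smpx (1.47 ± 0.0773 to 0.805 ± 0.267 CPM), Nebl (1.25 ± 0.290 to 0.700 ± 0.0939), Pik3r5 (8 ± 1.17 to 5.27 ± 0.863), Sh2d7 (6.69 ± 1.22 to 4.88 ± 0.339) and Plk2 (27.3 ± 5.49 to 21.3 ± 0.676). The seventh, Skap2, was higher (29.6 ± 1.11 to 37.9 ± 4.87). None of these 6 passed with edgeR (adjusted p between 0.184 and 0.392).

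**Figure D4:**
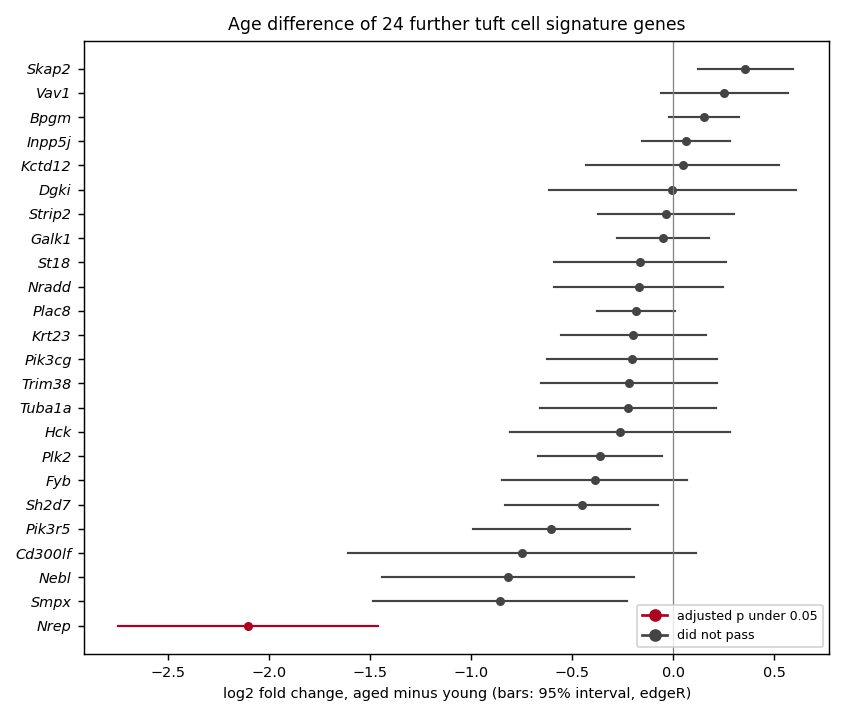
Log2 fold change, aged minus young, of 24 further genes of published tuft cell signatures, with 95% intervals from edgeR. Nrep, in red at -2.10, stands apart from the others, which lie between -0.86 and 0.36. Of the 24 genes 19 lie below 0.

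In the other 5 lists 0 genes passed with edgeR. The 10 tested taste-type receptor and second messenger genes had a median of -0.03. Where 5.33% of all genes were lower at an unadjusted p below 0.05, 1 of the 10 was. This was Itpr2, a calcium release channel, at 14.7, 13.2 and 11.5 CPM in young and 8.21, 9.23 and 9.12 CPM in aged libraries (log2 fold change -0.57 ± 0.13, edgeR adjusted p = 0.0767). DESeq2 called 1 gene of this list lower, with an adjusted p of 0.00264 for Itpr2, and limma-voom called 0. These tools called 3.23 and 1.2% of all genes. Without a filter on low counts edgeR also called Itpr2 (adjusted p = 0.0236), against 1.65% of all genes. Itpr3, the channel isoform of taste cells, and Gnb1, a common G protein beta subunit, had log2 fold changes of 0.09 and 0.02. The 12 tested eicosanoid genes outside the members had a median of -0.01. The abundant Lta4h and Mgst3 had log2 fold changes of 0.01 and -0.12, and Mgst2, another leukotriene C4 synthase, 0.20. DESeq2 called 1 of the 12 higher and limma-voom 0, against 3.23 and 1.2% of all genes in either direction. Without a filter on low counts and without aged replicate 3 edgeR called 1 higher, against 1.65 and 1.78% of all genes.

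The 14 tested genes of the type 2 circuit had a median of 0.21, with 11 above 0. At an unadjusted p below 0.05, 4 were higher and 1 lower, where 3.9 and 5.33% of all genes were, and 48.2% of all genes lay below 0. DESeq2 called 1 higher and limma-voom 0, against 3.23 and 1.2% of all genes in either direction. edgeR also called 1 higher without a filter on low counts, without young replicate 3 and without aged replicate 3. In these fits 1.65, 0.732 and 1.78% of all genes were called. Retnlb, a goblet cell protein released in worm infection, stood at 0.401, 6.07 and 0.142 CPM in the aged mice and 0.135 to 0.408 CPM in the young mice, so a single aged library was high. Stat6, the transcription factor behind interleukin 13 responses, had a log2 fold change of 0.04, and Clca1, a mucus protein of goblet cells, -0.58 ± 0.24 (edgeR adjusted p = 0.512).

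The 14 other transcription factors of secretory and tuft cell fate had a median of -0.10, with 0 called by DESeq2 or limma-voom. Of these, 2 were lower at an unadjusted p below 0.05, where 5.33% of all genes were. Spdef, a goblet cell factor, had a log2 fold change of -0.40 ± 0.16 (edgeR adjusted p = 0.467), Sox9 0.18 and Sox4 -0.05. The 13 tested microvillus and keratin genes had a median of 0.01, with 0 called by DESeq2 or limma-voom. At an unadjusted p below 0.05 there were 0 of them, against 9.23% of all genes. Their log2 fold changes included -0.03 for Krt19, 0.01 for Krt8, the keratin partner of Krt18, and -0.10 for Cdhr2. Espn, at 0.53, was thus not matched by a like difference in Krt8, Krt19 or Cdhr2, though the difference between them was not tested.

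Of the 14 tested defining markers of tuft cells, all of them members counted above, 10 (71.4%) lay below 0, where 48.2% of all genes did. Their median was -0.15, with 0 called. At an unadjusted p below 0.05, 2 were lower, where 5.33% of all genes were, and DESeq2 and limma-voom called 0. Without aged replicate 3 the median was 0.07 and 6 lay below 0. Markers of other epithelial cells also lay mostly below 0. The share was 69.2% of 13 enteroendocrine, 100% of 7 Paneth, 100% of 7 goblet and 87.5% of 8 enterocyte markers. It was 60% of 5 crypt base stem cell markers. Their medians were -0.296, -0.675, -0.404, -0.23 and -0.107, in the same order. Called lower were 3, 1, 1, 0 and 0, where 0.784% of all genes were. DESeq2 called 5, 4, 2, 1 and 0 lower and limma-voom 3, 1, 0, 0 and 0. These tools called 3.23 and 1.2% of all genes in either direction. Without aged replicate 1 or without aged replicate 2 edgeR called 0 in each of these lists, against 0.444 and 0.474% of all genes. A share below 0 above that of all genes was thus not particular to tuft cell genes.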

How the data were processed

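Poly(A) RNA libraries were made with a stranded kit from sorted cells, per the labels' protocols. The series design names 3 young and 3 aged mice, so each library was taken as 1 mouse. The authors deposited raw counts per gene, not normalised. The submitters' processing notes name GRCm38, STAR, HISAT2 2.1.0 and featureCounts 1.6.4, among others, without roles. Which annotation was counted, and whether by strand, is not given in the sources used here. Positions and exon lengths are from GENCODE M21 (GRCm38).

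Genes were kept by filterByExpr (minimum count 10), scaled with TMM and tested on all 14923 genes with edgeR 4.0.16's robust quasi-likelihood test (R 4.3.3), with 0.05 as the threshold of the Benjamini-Hochberg adjusted p. CPM values use TMM factors and RPKM values divide them by exon length. The standard error is the log2 fold change over the root of F. Alternatives were DESeq2 1.42.0, limma-voom 3.58.1, RLE factors, non-robust estimation, other filters, and fits that omit 1 library. The fit was tested on simulated data.

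The 31 members and all lists were chosen with earlier results of these data known, so lists are described by counts and medians and not tested. Members with a mean of at least 1 CPM are given library by library. In each further list the called genes, or else the 2 most abundant, and the gene with the largest change at 1 CPM or more are named. No libraries of a group agreed within sampling noise (chi-square per gene at least 25.0). The labels give no batch and no replicate number, so replicates were numbered in record order. Promoter windows were found for 25 members, 31 windows in all. The RefSeq start of Hpgds lies inside a longer GENCODE transcript.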

Additional observations from a re-analysis of the deposited data

How the results depend on the processing

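No paired analysis was possible because the labels give no replicate numbers. With 1 library left out, genes called higher numbered 35 to 135 and lower 30 to 135, tuft cell members called higher 0 to 1, and the median log2 fold change of the members -0.253 to 0.0691. Ptpn6 and Nrep kept their direction in all 12 alternatives and lost their calls only in the fits named beside them. DESeq2 called 206 genes higher and 276 lower. Without a filter 168 were higher and 245 lower, and with a minimum of 1 CPM in 3 libraries 67 were lower. Of the 26 members 16 kept their sign in every setting (9 below and 7 above 0), and 10 changed sign without some single library (Hmx2, Siglecf, Cd24a, Gng13, Matk, Sh2d6, Alox5ap, Ptgs1, Avil and Krt18). The summed level of the 31 members in aged over young libraries was 0.988, and between 0.987 and 1.08 with other scaling or without Cd24a and Krt18. For the 18 defining markers alone it was 0.885, with 0.883 under RLE factors and 0.886 under total counts only. Depth limits the 5 untested members and those under 1 CPM, such as Hmx2, whose interval was the widest.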

Other observations

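Alox15, the 12/15-lipoxygenase, was singled out after its values were seen. It measured 0.273, 0.270 and 0.432 CPM in the young mice and 1.31, 1.43 and 0.659 CPM in the aged mice. All aged libraries lay above all young ones, in contrast to the 5-lipoxygenase gene Alox5, whose aged libraries all lay below. The log2 fold change of 1.80 ± 0.38 (SE) did not pass (edgeR adjusted p = 0.0642), and the gene is low. Among the 12 tested eicosanoid genes outside the members, 1 was higher at an unadjusted edgeR p below 0.05, namely Alox15, where 3.9% of all genes were. The calls made in that list in other settings, all higher, are given above.

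The 4 type 2 circuit genes that were higher in aged libraries at an unadjusted p below 0.05 were Socs3 (42.1 ± 9.17 to 62.3 ± 5.83 CPM), Mif (30.2 ± 1.94 to 41.1 ± 7.23), Socs1 (3.66 ± 0.578 to 5.36 ± 0.644) and Il4ra (56.5 ± 4.76 to 69.1 ± 9.81). Socs1 and Socs3 encode feedback inhibitors of cytokine receptors, Mif a cytokine and Il4ra the shared receptor chain for interleukins 4 and 13. None passed after adjustment (edgeR adjusted p = 0.138, 0.196, 0.266 and 0.416).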
